A study of Homo sapiens with 6 samples.

Results

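The 10 genes described here encode core and accessory subunits of SWI/SNF, the human BAF family of chromatin remodelling complexes: SMARCC1, SMARCC2, SMARCB1, SMARCE1, SMARCD1, SMARCD2, SMARCD3, ACTL6A, DPF3 and BCL7B. They were chosen as a family by name and not by a cutoff on a measured value, but with earlier results of these data known. They are 10 of 19974 protein-coding genes on chromosomes 1 to 22 and X. For each gene, all ATAC-seq peaks were taken that lay within 1 kb of a gene boundary, elsewhere inside the gene, or within 100 kb of it. Peak position was the mean of both replicate summits, and gene boundaries came from RefSeq (GRCh38.p14). All 10 genes were found, with 98 peaks at T3 24 h, 18 at T3 6 h and 1 in vehicle, out of 60661, 12385 and 7103 peaks in the whole lists.

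SWI/SNF complexes use ATP to slide or evict nucleosomes and so open DNA for transcription factors. An ATPase, SMARCA4 or SMARCA2, sits on a scaffold built from a pair of SMARCC proteins, with SMARCB1, SMARCE1 and 1 of the interchangeable SMARCD proteins, while actin-related, BCL7 and DPF-family proteins are added around it. Nuclear receptors, among them the thyroid hormone receptors, are known to recruit the complexes to regulatory DNA. The series asks whether transcriptional programming by the receptor TRβ under T3 needs these remodellers.

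Accessibility was recorded in Nthy-ORI, an established human line of normal thyroid epithelium, with ATAC-seq, in which Tn5 transposase inserts adapters into open DNA. The groups were 10 nM T3 (triiodothyronine, the active hormone) for 24 h, 10 nM T3 for 6 h, and NaOH vehicle labelled 6 h, each with 2 samples. All of them, vehicle included, had spent 24 h without hormone in phenol-red free medium with charcoal-stripped serum, and nuclei of 50000 cells were used. There was no vehicle at 24 h among the samples analysed here, so T3 and time cannot be told apart at 24 h, and the labels do not state that the samples of a group were separate cultures.

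For every group the authors deposited 1 peak list built from both samples, so there is no replicated value per group and no p-value between groups. The lists carry no read counts, and depth is unknown. A gene without a peak is not shown to be closed, least of all in the shorter lists. Replicate summits lay a median of 46 bp apart over the T3 24 h list, 222 bp over the T3 6 h list and 180 bp over the vehicle list, so replicate agreement moves with the groups, and its part in the differences below was not tested. Signal has no stated normalisation and is given as deposited, with the percentile of the peak within its own list (100 is strongest). Among genes that mark thyroid follicular cells, PAX8, NKX2-1, FOXE1, HHEX and TSHR had a gene-end peak at T3 24 h and PAX8 at T3 6 h, while TG and SLC5A5, which encode thyroglobulin and the iodide transporter, had none in any list.

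At T3 24 h, 9 of the 10 subunit genes had a peak within 1 kb of a boundary (a gene-end peak), and SMARCD3 was the member without one. At T3 6 h there were 3, ACTL6A, SMARCE1 and BCL7B, and in vehicle 0. Over all 19974 genes the same was true of 60.8% at T3 24 h, 10.8% at T3 6 h and 1.34% in vehicle. The members' share at T3 24 h was 90% with an exact Clopper-Pearson 95% interval of 55.5% to 99.7%, which includes the share of all genes, and at T3 6 h it was 30.0% (6.67% to 65.2%), which includes it as well. The intervals cover counting error only. The 9 members with a T3 24 h peak and the 3 with a T3 6 h peak all lacked one in vehicle. So did 11915 of the 12137 genes with a T3 24 h gene-end peak (59.7% of all genes) and 2064 of the 2162 with a T3 6 h one (10.3%). The 3 members with a peak at T3 6 h had one at T3 24 h too, as did 2052 of the 2162 genes (10.3% of all genes). Of the 9 members, 6 lacked a gene-end peak at T3 6 h, as did 10085 of the 12137 genes (50.5% of all genes). No member had one at T3 6 h alone (0.551% of all genes) or in vehicle without T3 24 h (0.225%). SMARCD3 had none in the 3 lists, which was true of 38.5% of all genes. With the surroundings of 100 kb included, 10, 9 and 1 of the members had a peak at T3 24 h, at T3 6 h (all but SMARCC1) and in vehicle (DPF3), against 97.6%, 66.8% and 33.1% of all genes.

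**Figure D1:**
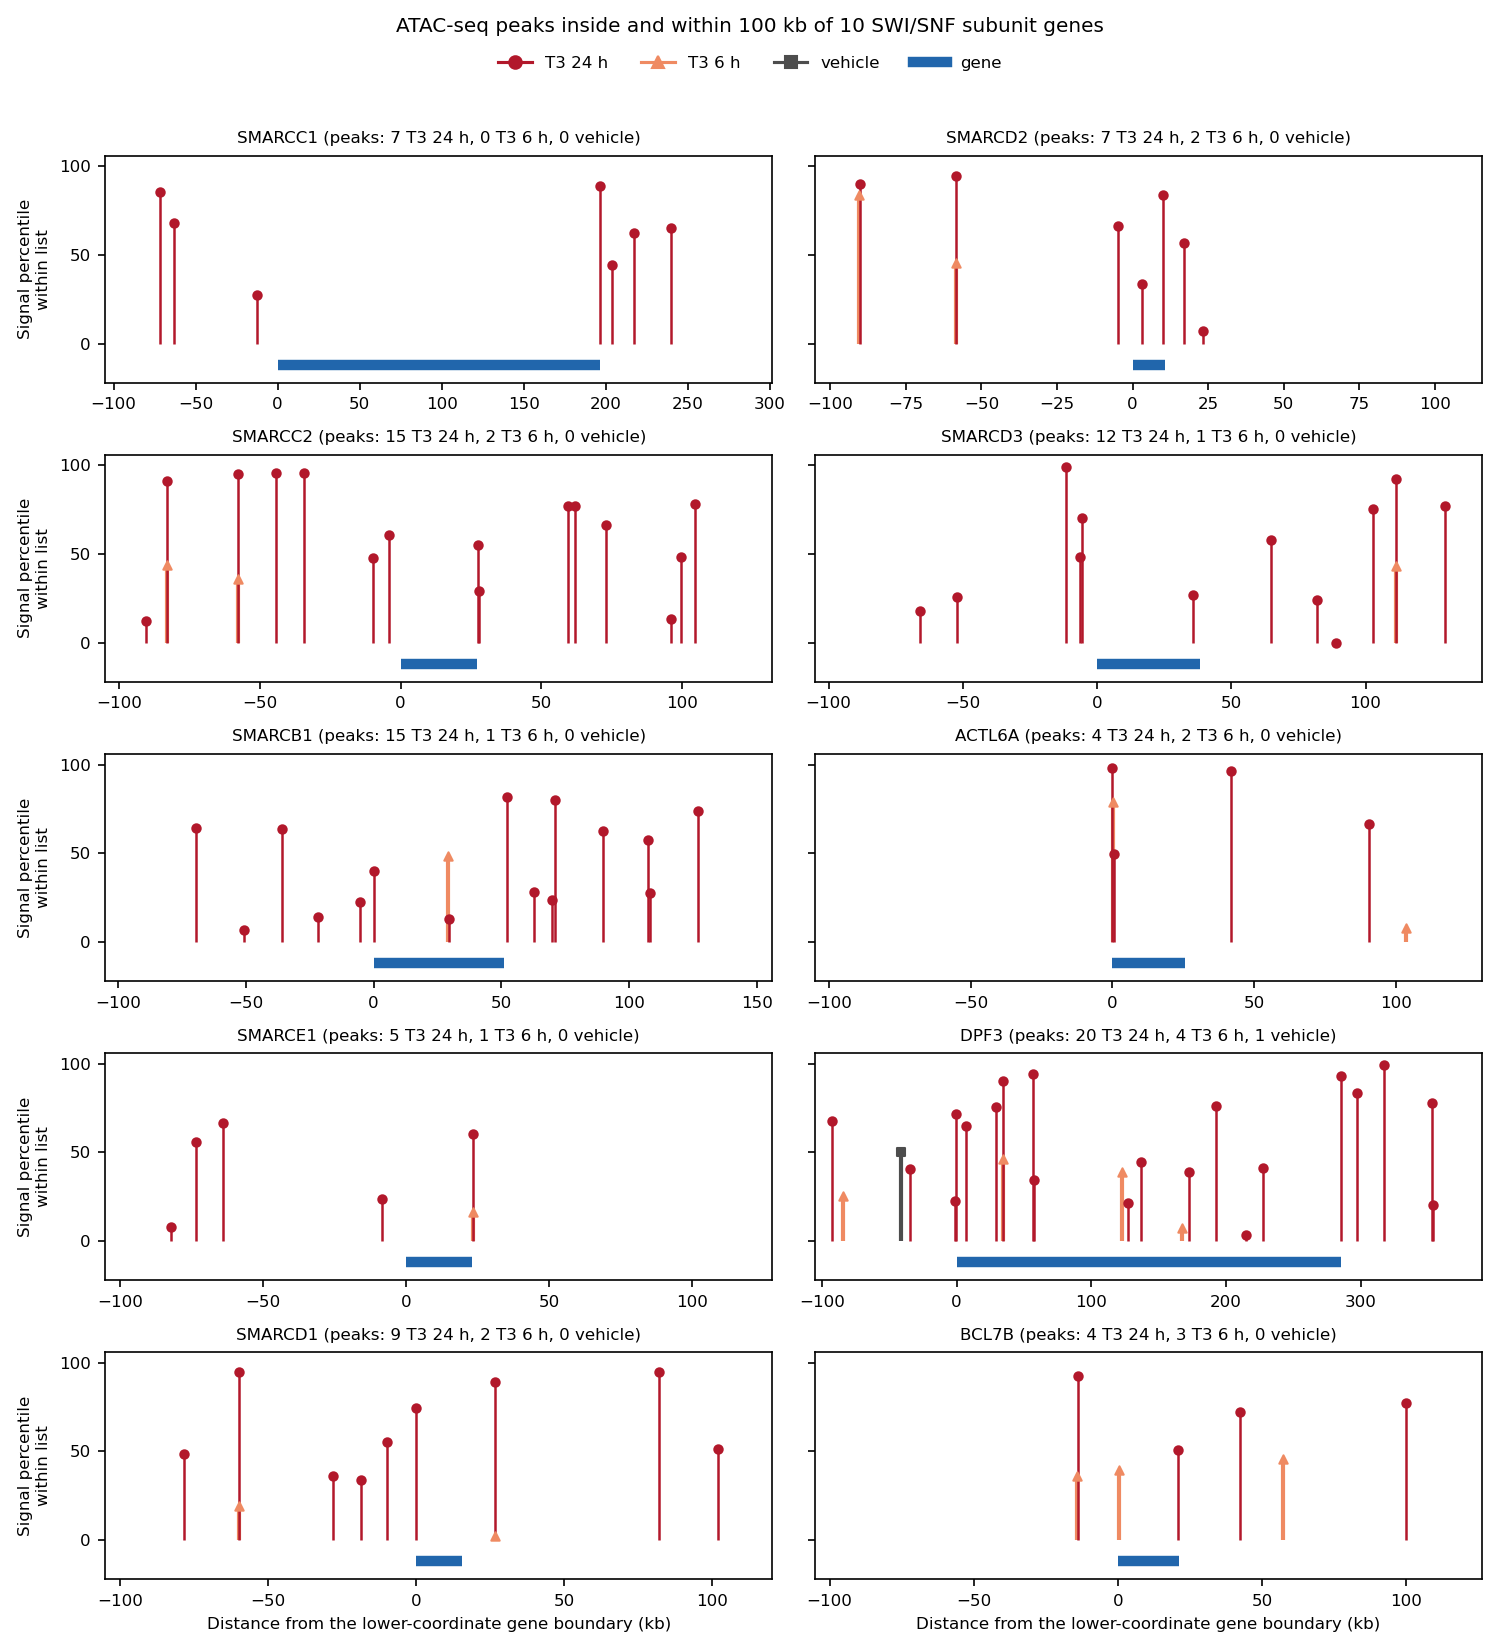
Peaks inside and within 100 kb of the 10 genes, with distance from the lower-coordinate gene boundary in kb on the x axis and the percentile of summed signal within the peak's own list on the y axis. Red circles are T3 24 h, orange triangles T3 6 h and grey squares vehicle peaks, and the blue bar is the gene. DPF3 had 20 peaks at T3 24 h, 4 at T3 6 h and the 1 vehicle peak of the set, while the body of SMARCC1 held none.

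SMARCC1 and SMARCC2 (BAF155 and BAF170) form the scaffold on which the complex is assembled. SMARCC1 had 1 gene-end peak, in the T3 24 h list at chr3:47781830-47782465 (hg38), with signals of 11.1 and 13.01 in the 2 replicate columns. The summed signal of 24.1 stood at percentile 89.1 of the T3 24 h list, the columns ranked it alike at 89.2 and 87.8, and the summits were 19 bp apart. It lay 184.5 bp outside the higher-coordinate boundary and was the strongest of 7 peaks in the locus. The 196625 bp of the gene body held 0 peak positions in any list, which at T3 24 h put SMARCC1 at percentile 5.95 of 3351 genes of at least 100 kb ranked by peaks per 100 kb of body. All long genes with an empty body share this rank, the midpoint of their tie. It was 28.8 at T3 6 h and 37.9 in vehicle, where more bodies were empty.

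Its paralogue SMARCC2 was weaker at its own boundary. It had a pair of T3 24 h peaks beside the higher-coordinate end, at chr12:56189405-56189844 and chr12:56190019-56190665, with summits 247.5 bp and 842.5 bp outside the gene. The nearer one had signals of 5.73 and 7.55 (percentile 55.0 for the sum of 13.3), and the farther one 5.40 and 4.68 (percentile 29.0 for 10.1). The replicate summits of these peaks agreed to 33 and 27 bp. The surroundings of SMARCC2 were rich in peaks at T3 24 h: 15 in the gene and 100 kb on either side, or 6.6 per 100 kb, at percentile 93.0 of all genes, while the SMARCC1 locus had 1.76 per 100 kb (percentile 21.4). The strongest was a flanking peak of signal 29.8 whose nearest gene end was that of ESYT1, and the stronger SMARCC2 gene-end peak ranked 10 of 15. Neither paralogue had a gene-end peak at T3 6 h or in vehicle.

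SMARCB1 (SNF5, BAF47) is the core subunit that contacts the nucleosome and is lost in rhabdoid tumours. Its T3 24 h gene-end peak, chr22:23786760-23787920, was broad at 1161 bp and modest in signal, with 6.13 and 5.03 in the columns and 11.2 in sum (percentile 39.7). The summits lay at 62 and -26 bp from the annotated start, where a negative value is upstream. SMARCB1 was also the one member besides DPF3 with a peak inside the gene, more than 1 kb from either boundary, at both T3 times. At T3 24 h this peak, 29462.5 bp downstream of the start, had a signal of 8.82 (percentile 12.98), and at T3 6 h the overlapping peak had 10.1 (percentile 48.2). Its replicate summits were 511 bp apart at T3 24 h and 871 bp at T3 6 h, so its position is poorly fixed in both lists.

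SMARCE1 (BAF57), an HMG-box subunit that binds DNA and several nuclear receptors, was 1 of 2 members with overlapping gene-end peaks at both T3 times. The T3 24 h peak, chr17:40648045-40648895, had signals of 7.96 and 6.26 (14.2 in sum, percentile 60.1), and its summits were 15 bp apart and lay 523 and 508 bp upstream of the start. The T3 6 h peak, chr17:40647844-40648999, had 3.79 and 5.31 (9.11 in sum, percentile 16.3), with summits 634 and 480 bp upstream. The T3 24 h peak was 851 bp wide and the T3 6 h peak 1156 bp, and both T3 6 h summits fell within the T3 24 h peak. By signal the T3 6 h peak was in the lower part of its list, at percentiles 18.9 and 43.5 of the single columns. Its IDR was 0.0393, close to the authors' limit of 0.05.

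SMARCD1, SMARCD2 and SMARCD3 (BAF60A, BAF60B and BAF60C) are alternative subunits that link the complex to transcription factors, with BAF60C known for roles in heart and skeletal muscle. They differed in the T3 24 h list. SMARCD1 had a peak over its start, chr12:50084855-50085562, with signals of 7.24 and 10.5 (17.8 in sum, percentile 74.2) and summits at -201 and -143 bp from the start. SMARCD2 had the stronger and wider one, chr17:63841599-63843355, with 8.42 and 13.1 (21.5 in sum, percentile 84.1) over 1757 bp. Its replicate summits lay 869 bp apart, the widest gap among the members' gene-end peaks: the first column had its summit 59 bp upstream of the outer start and the second 591 bp downstream of the nearest start, that of an inner transcript. SMARCD3 had no peak within 1 kb of any of its 3 annotated starts. The nearest was a 1900 bp wide peak at chr7:151273965-151275864, 2370 bp downstream of a start, with signals of 5.58 and 4.30 (percentile 26.7 for 9.88). The locus of SMARCD3 was not poor in peaks, with 12 at T3 24 h, and the strongest, of signal 35.8 (percentile 98.9), lay 120 bp from an end of ABCF2-H2BK1. None of these paralogues had, at T3 6 h, a peak at an end or inside, and their loci held 2, 2 and 1 flanking peaks.

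ACTL6A (BAF53A), the actin-related subunit of proliferating cells that also serves other remodellers, had the strongest gene-end peak of the set. The T3 24 h peak at chr3:179562608-179563211 had signals of 14.3 and 19.1 and a sum of 33.5, at percentile 98.2, with summits 50 bp apart at the lower-coordinate boundary. A second T3 24 h peak at chr3:179563387-179563841, with 6.06 and 6.39 (12.4 in sum, percentile 49.7), had its summits 5 bp apart 646.5 bp inside the gene. In the T3 6 h list there was 1 peak of 1451 bp, chr3:179562646-179564096, with 4.49 and 7.24 (11.7 in sum, percentile 78.7), which spanned the place of both. Its replicate summits were 814 bp apart: the summit of the second column fell in the first of the T3 24 h peaks, 69 bp from its position, and that of the first column in the second T3 24 h peak, 30.5 bp from its position. The ACTL6A peak was the one member peak at T3 6 h with an IDR under 0.01, at 0.00429.

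DPF3 (BAF45C), whose PHD fingers read acetylated histones and which is best known from heart and muscle, carried more peaks than any other member. It is also the longest member. Per 100 kb of locus it had 4.12 T3 24 h peaks, at percentile 63.5 of all genes. That was below SMARCC2 (6.6), SMARCB1 (5.98), SMARCD3 (5.03) and SMARCD1 (4.18). The T3 24 h peak over its outer start, chr14:72893759-72894366, had signals of 11.8 and 15.1 (26.9 in sum, percentile 92.8) with summits 102 and 136 bp upstream. A further T3 24 h peak at the opposite end, chr14:72608362-72609213, had 7.47 and 9.46 (16.9 in sum, percentile 71.4). Between them lay 11 T3 24 h peaks inside the 285068 bp gene, 175 to 1086 bp wide, with signals of 8.02 to 27.9. Of these, 8 had summits within 100 bp, as had 70.5% of the whole list. That is 3.86 peaks per 100 kb of body, at percentile 81.5 of the 3351 long genes, so DPF3 was well above SMARCC1 but within the range of long genes. DPF3 had, at T3 6 h, 3 peaks inside and none at an end. One of them, chr14:72642988-72643790, with 5.90 and 4.13 (10.0 in sum, percentile 46.4), overlapped a T3 24 h peak of 9.92 and 14.97 (24.9 in sum, percentile 90.2) at chr14:72643235-72643790. The summits of this site were 43 bp apart at T3 24 h and 24 bp at T3 6 h, closer than at the site inside SMARCB1, and its nearest gene end, 13418.5 bp away, was that of RGS6, which overlaps DPF3. The other two had no T3 24 h counterpart. The 1 vehicle peak of the whole set, chr14:72567428-72568803 with 4.50 and 5.49 (9.99 in sum, percentile 50.1), lay 41265.5 bp outside DPF3 and was in neither T3 list.

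BCL7B, a small accessory subunit, had peaks at opposite ends at the 2 times. The T3 24 h peak, chr7:73556654-73557441, had 6.08 and 6.57 (12.6 in sum, percentile 50.95). It lay 521.5 bp inside the outer boundary, but 67.5 bp downstream of an inner annotated start, with summits at 141 and -6 bp from that start. The T3 6 h peak, chr7:73536601-73537223, had 4.17 and 5.62 (9.79 in sum, percentile 39.7), lay 442.5 bp inside the far end of the transcript, had summits 363 bp apart and was not in the T3 24 h list. Of all 1806 gene-end peaks at T3 6 h, 92.6% were in the T3 24 h list, and BCL7B thus belonged to the smaller remainder.

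**Figure D2:**
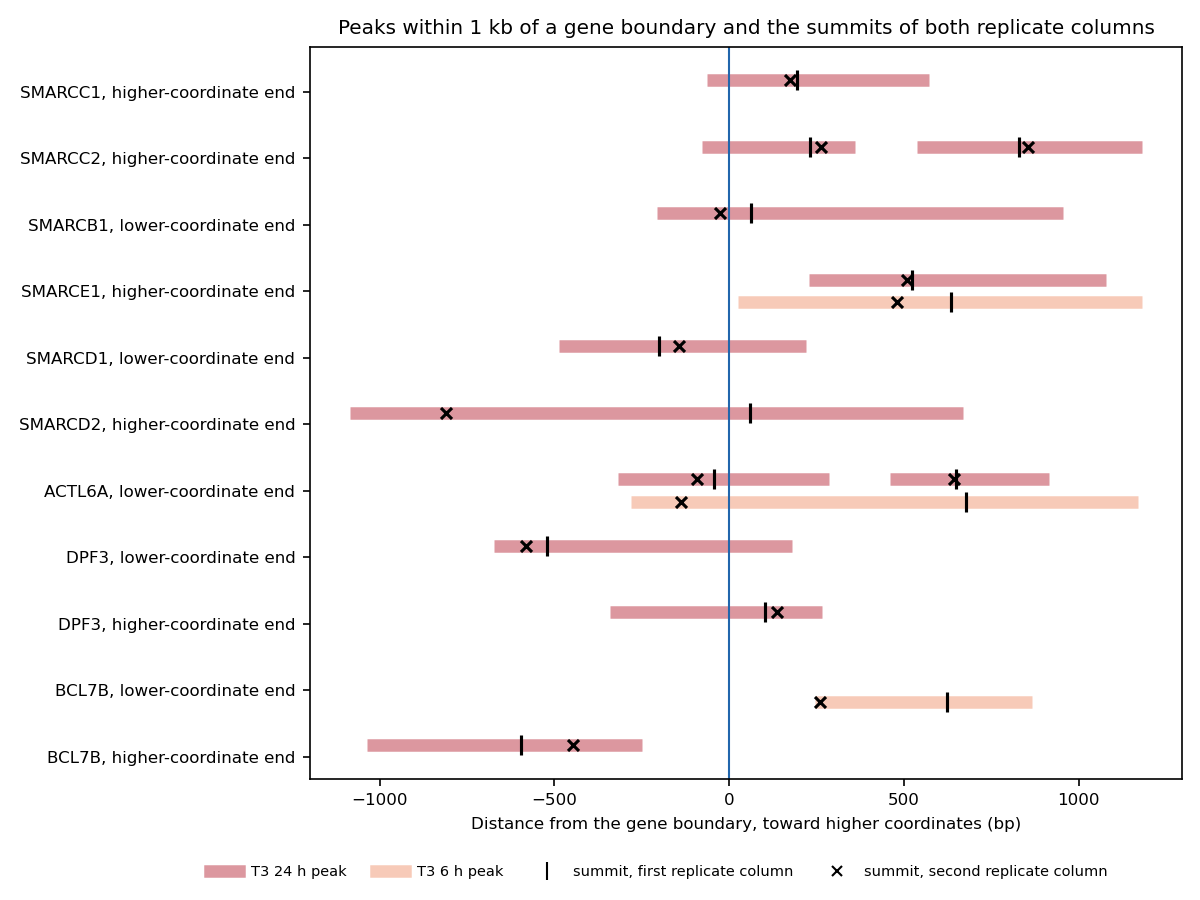
Gene-end peaks of the 9 members that had one, with distance from the gene boundary in bp, counted toward higher coordinates, on the x axis. Red bars are T3 24 h and orange bars T3 6 h peaks, and the stroke and the cross mark the summits of the first and second replicate columns. The summits nearly coincide in most T3 24 h peaks, and lie 869 bp apart at SMARCD2 and, at T3 6 h, 814 bp apart at ACTL6A.

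The start regions themselves show how these places differ in sequence. RefSeq promoter windows of GRCh38.p14, 250 bases before to 50 after an annotated start, were at hand for 7 members, under 80% of the set, so a statement on GC content or motifs over the set would be void and the values are given gene by gene. SMARCC1, SMARCC2 and ACTL6A have no entry. The windows below are those that the T3 24 h peak covers wholly or mostly (DPF3, SMARCD1, SMARCB1, BCL7B), that of SMARCE1, and that of 1 of the 3 starts of SMARCD3, none of which had a peak. The SMARCE1 window is overlapped by peaks of both T3 times, which lie upstream of the start and do not cover it. The outer pair of the 3 SMARCD2 windows was covered over all 300 bases as well, by the wide peak described above, and is not printed. They read 5′ to 3′ on the gene's strand, and the first 250 bases lie before the annotated start. Capitals mark matches, on either strand, to AGGTCA (the core element bound by nuclear receptors), CCAAT (NF-Y), GGGCGG (GC box), TGANTCA (AP-1), CACGTG (E-box), CCGGAAG (ETS), GCGC followed by any 2 bases and GCGC (NRF1) and the YY1 motif. No matches overlap in the windows printed.
DPF3, chr14:72894052-72894351, minus strand: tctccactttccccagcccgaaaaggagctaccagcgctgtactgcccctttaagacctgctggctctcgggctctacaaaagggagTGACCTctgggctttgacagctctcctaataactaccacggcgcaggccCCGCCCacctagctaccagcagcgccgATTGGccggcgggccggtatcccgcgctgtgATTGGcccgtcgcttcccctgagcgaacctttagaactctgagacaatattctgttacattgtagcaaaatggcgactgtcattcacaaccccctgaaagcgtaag
SMARCD1, chr12:50085092-50085391, plus strand: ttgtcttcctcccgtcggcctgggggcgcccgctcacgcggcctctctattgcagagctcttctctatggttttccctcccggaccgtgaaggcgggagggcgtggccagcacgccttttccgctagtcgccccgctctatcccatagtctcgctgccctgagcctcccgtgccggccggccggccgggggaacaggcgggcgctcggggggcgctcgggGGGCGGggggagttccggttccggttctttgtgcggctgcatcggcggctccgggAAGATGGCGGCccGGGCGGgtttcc
SMARCB1, chr22:23786716-23787015, plus strand: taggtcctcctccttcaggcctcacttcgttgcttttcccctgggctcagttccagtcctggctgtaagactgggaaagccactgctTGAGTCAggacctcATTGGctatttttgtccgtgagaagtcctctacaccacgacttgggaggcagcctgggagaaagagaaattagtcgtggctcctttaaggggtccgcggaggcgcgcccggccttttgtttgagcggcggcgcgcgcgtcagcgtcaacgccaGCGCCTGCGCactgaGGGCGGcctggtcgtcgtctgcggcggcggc
BCL7B, inner start, chr7:73557187-73557486, minus strand: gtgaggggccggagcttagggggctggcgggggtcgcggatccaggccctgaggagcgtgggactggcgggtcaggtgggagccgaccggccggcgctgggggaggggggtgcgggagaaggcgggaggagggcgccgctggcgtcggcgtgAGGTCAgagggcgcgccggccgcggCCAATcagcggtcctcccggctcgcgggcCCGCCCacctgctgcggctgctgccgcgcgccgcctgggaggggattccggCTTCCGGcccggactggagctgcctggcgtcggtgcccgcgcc
SMARCE1, chr17:40647769-40648068, minus strand: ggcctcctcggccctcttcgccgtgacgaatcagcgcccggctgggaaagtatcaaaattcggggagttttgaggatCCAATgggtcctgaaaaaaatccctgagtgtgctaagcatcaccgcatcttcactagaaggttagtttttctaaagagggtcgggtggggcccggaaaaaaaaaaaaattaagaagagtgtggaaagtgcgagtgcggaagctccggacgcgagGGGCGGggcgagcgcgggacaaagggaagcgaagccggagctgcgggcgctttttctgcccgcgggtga
SMARCD3, outer start, chr7:151277100-151277399, minus strand: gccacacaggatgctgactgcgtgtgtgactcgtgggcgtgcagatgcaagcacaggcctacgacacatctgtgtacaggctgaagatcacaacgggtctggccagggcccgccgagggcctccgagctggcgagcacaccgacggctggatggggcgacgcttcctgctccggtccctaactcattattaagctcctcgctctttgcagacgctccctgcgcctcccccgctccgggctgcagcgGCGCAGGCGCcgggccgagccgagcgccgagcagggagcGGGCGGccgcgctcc

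The nuclear receptor core element was present in the DPF3 window, as its reverse complement 163 bases before the start, and in the BCL7B window, 98 bases before it. It was found in 11.9% of 22132 windows of protein-coding genes. The direct repeat of AGGTCA with any 4 bases between the copies, the element that thyroid hormone receptors bind with RXR, was in none of the 13 windows of members and in 0.00904% of all windows. CCAAT boxes stood in the printed windows of DPF3, SMARCB1, BCL7B and SMARCE1 (34.6% of all windows), and 2 of them in DPF3. GC boxes stood in all 6 windows printed (56.3% of all windows), and the AP-1 motif only in that of SMARCB1 among the 13 (6.15%). The YY1 motif was found in SMARCD1, 25 bases after the start, and in 1.18% of all windows. Among the 6 printed windows, NRF1 matches stood in SMARCB1 and SMARCD3 (10.6% of all windows) and an ETS match in BCL7B (12.8%). The E-box (8.34%) was in none of the 6. The outer-start window of BCL7B, which is not printed, held 2 NRF1 matches, 5 GC boxes and 1 E-box. The inner window of DPF3, not printed either, held 1 CCAAT box and 2 GC boxes. A match of letters is not a bound site, and no match says only that these letters are not in this window.

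GC content spread widely over the windows. BCL7B had 79.0% GC with 39 CpG pairs and SMARCD1 71.3% with 35, against medians of 62.3% and 21 over all windows. SMARCB1 had 61.7% with 25, DPF3 57.0% with 18 and SMARCE1 56.3% with 25. The printed SMARCD3 window, without a peak, had 68.7% with 31, and its other 2 windows, also without a peak, had 73.3% with 36 and 66.0% with 1. The covered pair of SMARCD2 windows had 82.0% with 48, the highest of the members, and 68.3% with 41. Further windows without a peak were the outer one of BCL7B (77.7% with 44), the inner one of DPF3 (63.3% with 21) and the innermost of SMARCD2 (57.0% with 5). The T3 24 h peaks covered 300 of the 300 bases in DPF3 and in SMARCD1, 256 in SMARCB1, 255 in BCL7B and 24 in SMARCE1. At T3 6 h, 225 bases of the SMARCE1 window were covered and 0 of the others, and no vehicle peak touched any window.

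By strength, the gene-end peaks of the 9 members at T3 24 h ran from percentile 39.7 (SMARCB1) to 98.2 (ACTL6A) when the strongest peak of each gene was taken, with a median of 74.2. Over the 12137 genes with such a peak the median was 75.7, close to that of the members. ACTL6A and DPF3 ranked highest in both replicate columns. SMARCC1 came next in the first column, at 89.2, and was level with SMARCD2 in the second, at 87.8 and 87.96. SMARCE1 stood at 71.3 and 46.5 in the columns and SMARCB1 at 50.9 and 28.01. For T3 6 h the median of the 3 members was 39.7, against 49.7 over 2162 genes. In the T3 24 h list a gene's own end held the strongest peak of its locus in 2 members, SMARCC1 and ACTL6A, and in the other 8 a flanking peak was the strongest, in 6 of them within 1 kb of an end of a neighbouring gene. Of all 19486 genes with a T3 24 h peak in the locus, 17.3% were led by a peak at their own end and 73.6% by a flanking peak, and 51.7% of these flanking peaks were at a neighbour's end. None of the members' gene-end peaks lay within 1 kb of an end of another protein-coding gene. For gene-end peaks the share over all genes was not computed, and some other SWI/SNF genes, PBRM1 and SS18L1 among them, had such peaks. Of the 72 flanking peaks at T3 24 h, 36 were at an end of another gene, against 31.1% of the flanking peaks of all genes. A peak was counted once for each gene it flanks.

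**Figure D3:**
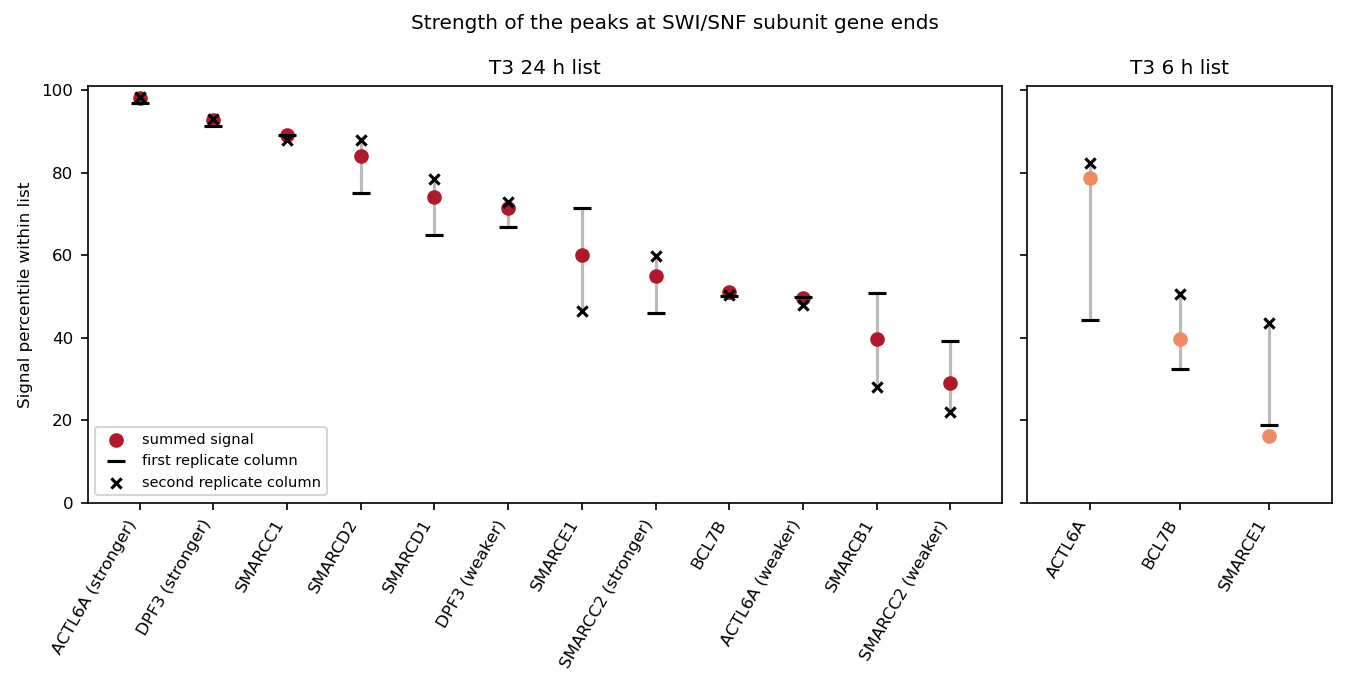
Percentile of signal within the list (y axis) for each gene-end peak of a member (x axis), T3 24 h left and T3 6 h right. Filled circles are the summed signal, dashes the first and crosses the second replicate column. ACTL6A, DPF3 and SMARCC1 lead at T3 24 h by summed signal, and at T3 6 h the columns of ACTL6A stand at 44.4 and 82.4.

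The flanks repeat the order of the lists. Of the 98 T3 24 h peaks at member loci, 12 were at gene ends, 14 inside and 72 in the flanks, and of the 18 T3 6 h peaks 3, 4 and 11. Set against vehicle, 0 of the 98 T3 24 h peaks (0% to 3.69%) and 0 of the 18 T3 6 h peaks (0% to 18.5%) overlapped a vehicle peak by at least 50% of the shorter peak, against 4.05% and 19.2% of the whole lists. Of all gene-end peaks, 1.59% at T3 24 h and 4.82% at T3 6 h did so. The member loci held 1 vehicle peak in all, so their shares could hardly differ from 0, and no conclusion is drawn from them. Set against T3 6 h, 13 of the 98 T3 24 h peaks (13.3%, 7.26% to 21.6%) were shared, against 10.2% of the whole list. Seen from T3 6 h, 12 of 18 peaks (66.7%, 41.0% to 86.7%) were in the T3 24 h list, against 49.3% of all T3 6 h peaks. The whole lists are not like sets. The 18 held 3 peaks at a member's end and 7 flanking peaks at another gene's end, and the 98 held 12 and 36. Of all gene-end peaks, 92.6% at T3 6 h and 14.6% at T3 24 h were shared with the other T3 list. No excess of sharing at member loci is read from these values. Peaks of 1 locus are not independent, and the intervals given treat them as if they were. At T3 6 h, 8 of the 11 flanking peaks were shared with T3 24 h, and the share over all flanking peaks was not computed. The 8 included those at ERBB3 and PA2G4 near SMARCC2, COX14 near SMARCD1, STRADA and DDX42 near SMARCD2 and BAZ1B near BCL7B. Each of the peaks so named was also at an end of the gene named.

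Among the strongest flanking T3 24 h peaks, that of DPF3 (36.7, percentile 99.1) was 61 bp from an end of DCAF4, that of ACTL6A (30.8) 27 bp from one of NDUFB5, that of SMARCD2 (28.5) 40.5 bp from DDX42 and that of BCL7B (26.8) 146 bp from BAZ1B, which encodes a subunit of ISWI-type remodellers. For SMARCB1 and SMARCC1 they were 143 bp from DERL3 and 242 bp from ELP6. That of SMARCD1 (28.7, percentile 94.9) was not at a gene end. It lay 59797.5 bp upstream of SMARCD1 and 7895.5 bp from the nearest gene end, that of RACGAP1, its replicate summits were 5 bp apart, and a T3 6 h peak of signal 9.19 with summits 93 bp apart overlapped it. A like site lay 73140.5 bp upstream of SMARCD3, with 26.4 at T3 24 h (percentile 92.3, summits 77 bp apart) and 9.90 at T3 6 h (percentile 43.1, summits 86 bp apart). Nothing here ties either site to the SMARCD gene.

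Replicate summits at the members followed their lists. At T3 24 h the median distance was 50 bp over the 98 peaks, and 72 of them were within 100 bp. In the whole list the median was 46 bp, and 70.5% were within 100 bp. At T3 6 h it was 199 bp over the 18 peaks, with 7 within 100 bp, against 222 bp and 29.4% in the whole list. All 3 gene-end peaks at T3 6 h were outside this limit, at 814 bp in ACTL6A, 363 bp in BCL7B and 154 bp in SMARCE1. At T3 24 h 10 of 12 were inside it. Over all genes, 29.0% of gene-end peaks at T3 6 h and 70.1% at T3 24 h were inside it. Of the 7 that passed at T3 6 h, 2 were inside DPF3 and 5 were in flanks. With an IDR of at most 0.01, gene-end peaks were left in 9, 1 and 0 members at T3 24 h, at T3 6 h (ACTL6A) and in vehicle, against 55.1%, 3.59% and 0.461% of all genes. With the limit of 100 bp, 7 members kept a gene-end peak at T3 24 h (43.5% of all genes) and 0 at T3 6 h (3.14%) and in vehicle (0.320%), and SMARCD2 and BCL7B were the T3 24 h members that dropped out.

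**Figure D4:**
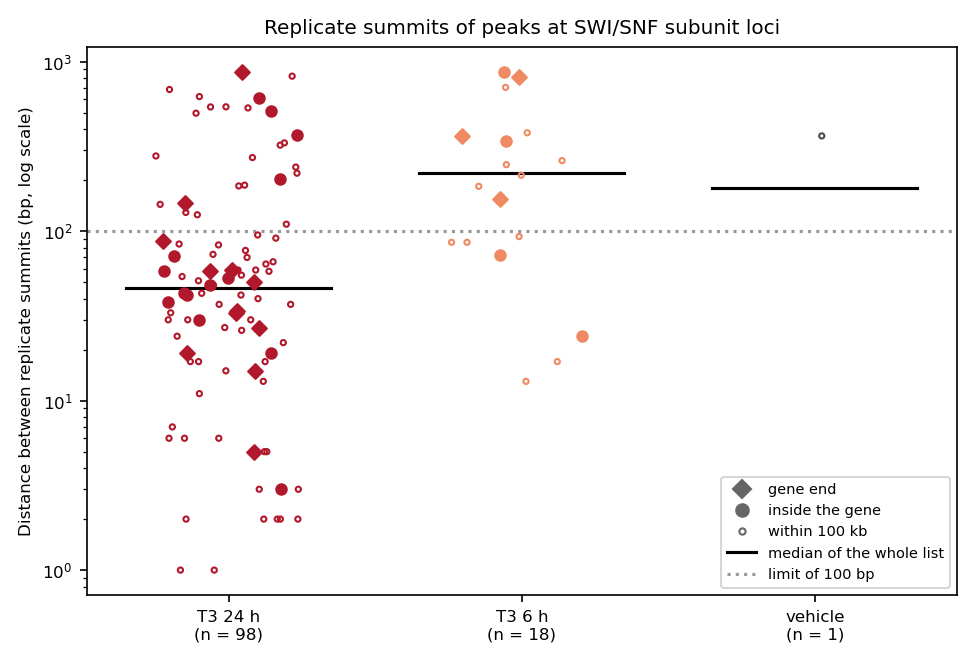
Distance in bp between the summits of the replicate columns (y axis, log scale) for the 98 T3 24 h, 18 T3 6 h and 1 vehicle peaks at member loci. Diamonds are gene-end peaks, filled circles peaks inside a gene and open circles flanking peaks, black lines are the medians of the whole lists, and the dotted line is 100 bp. The gene-end peaks of T3 6 h all lie above the dotted line.

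With lists of equal length the difference between the T3 times was smaller. With each list limited to its 7103 strongest peaks, 3 members had a gene-end peak at T3 24 h (SMARCC1, ACTL6A and DPF3), 1 at T3 6 h (ACTL6A) and 0 in vehicle, against 16.6%, 6.26% and 1.34% of all genes. Ranked by the first replicate column the same 3 and 1 members were left (16.4% and 6.94% of all genes). Ranked by the second there were 2 at T3 24 h (ACTL6A and DPF3, 16% of all genes) and 3 at T3 6 h (SMARCE1, ACTL6A and BCL7B, 5.46%), so the members' order of the times turned round. ACTL6A was the one member present at both T3 times in each of these lists.

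**Figure D5:**
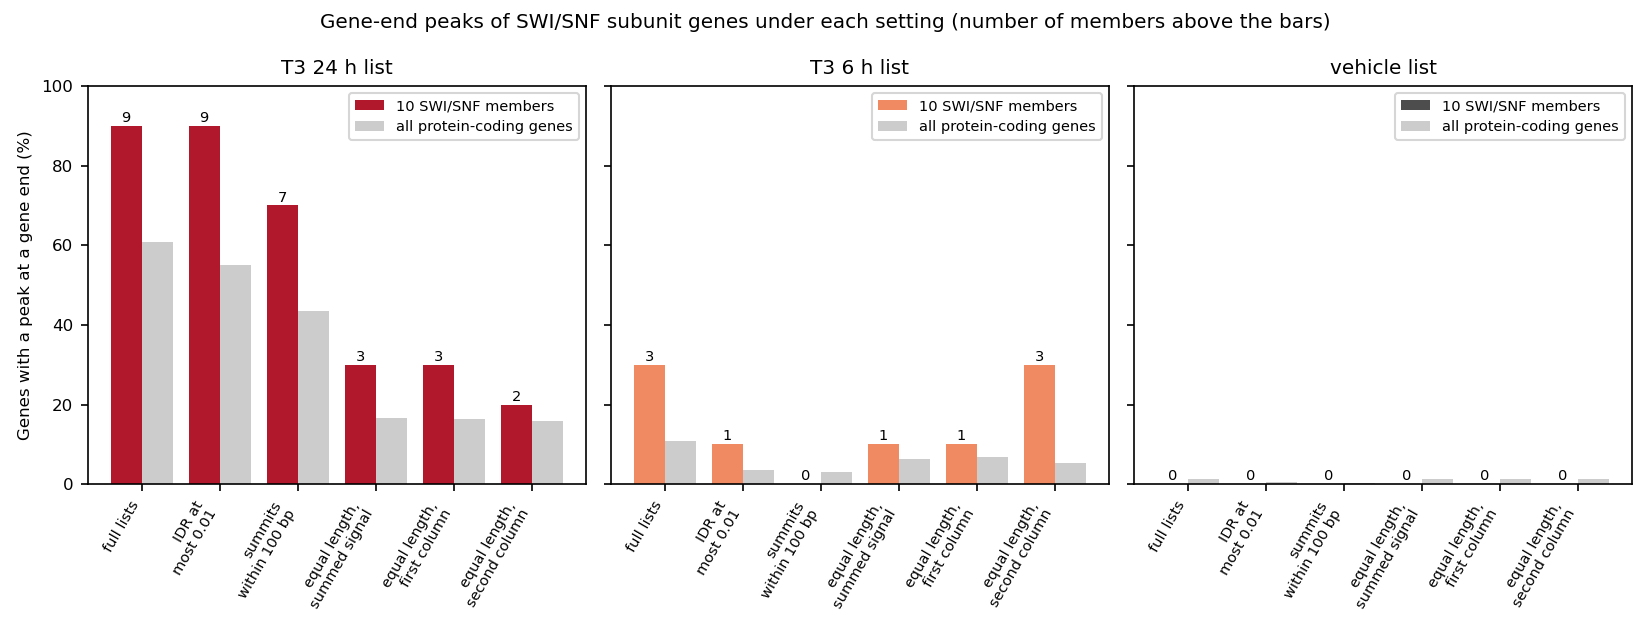
Share of genes with a gene-end peak (y axis, %) for the 10 members (coloured bars, with their number above) and for all protein-coding genes (grey bars), for T3 24 h, T3 6 h and vehicle from left to right, in the full lists and with stricter lists. At T3 24 h 9 members have such a peak in the full list and 2 or 3 in lists of equal length. In vehicle 0 have one in the full list, so the lists cut from it could hold none.

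The other genes of SWI/SNF complexes also had most gene-end peaks at T3 24 h and none in vehicle. Of 19, among them the ATPases, the ARID, PBRM1 and BRD subunits and ACTB, 14 had a gene-end peak at T3 24 h (73.7%, 48.8% to 90.9%), 1 at T3 6 h (5.26%, 0.133% to 26%) and 0 in vehicle, against 60.8%, 10.8% and 1.34% of all genes. With 100 kb included, 19, 15 and 8 of the 19 had a peak at T3 24 h, at T3 6 h and in vehicle. The shares of all genes were 97.6%, 66.8% and 33.1%. In vehicle that was 42.1% of the 19 and 10% of the members. At equal list length 1, 0 and 0 of the 19 kept a gene-end peak, against 16.6%, 6.26% and 1.34% of all genes. SS18, a subunit fused to SSX proteins in synovial sarcoma, was the one with a T3 6 h peak, of signal 9.64 (percentile 35.0) with summits 819 bp apart, and had 21.7 at T3 24 h (percentile 84.6). The strongest at T3 24 h was SS18L1 (26.2, percentile 92.0), at an end shared with MTG2, and PBRM1, the polybromo subunit of the PBAF complex, had 21.1 (percentile 83.3) at an end shared with GNL3. The strongest end peak per gene had a median percentile of 63.4 in these 14 genes and of 74.2 in the 9 members. ARID1B, BRD7, BCL7C, PHF10 and ACTL6B, the last being the neuronal counterpart of ACTL6A, lacked a gene-end peak in all 3 lists.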

How the data were processed

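ATAC-seq of 6 Nthy-ORI samples in 3 groups was used. Per the submitters' processing notes, CASAVA 1.7, Trim Galore, Bowtie2, MACS2 and DiffBind were used with hg38; no source used here gives settings, the Tn5 shift, duplicate handling or blacklists. The lists have no header and were read by the 20-column IDR layout. The deposited summed signal adds up the signals of both replicates, with no stated normalisation. The deposited score is the scaled IDR, and by the deposited −log10 IDR values the largest IDR in each list is 0.05. The replicate columns have no sample names, and are unnumbered replicates of the group.

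Peaks were assigned to genes with pandas 2.3.3 and numpy 2.4.6 under Python 3.11.15, and intervals were taken with scipy 1.17.1. Gene-end means within 1 kb of either boundary; peaks were shared if they overlapped by 50% of the shorter one. The gene table has no strand, which came from the promoter windows for 7 members. The overlap code was tested on simulated data and checked against bedtools 2.31.1. Alternatives were an IDR of at most 0.01, summits within 100 bp, equal list length, each replicate column alone, and other windows. All 10 members were named, and of the other SWI/SNF genes those with a vehicle or T3 6 h gene-end peak and the 3 strongest at T3 24 h; neighbours were named where a flanking peak was the strongest, and those of shared T3 6 h peaks, SMARCD3's distal site and genes without peaks after their values were seen. Members and lists were chosen with earlier results of these data known. Percentiles use the midpoint of ranks. One thyroid marker is not reported here.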

Additional observations from a re-analysis of the deposited data

How the results depend on the processing

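Of 133 values recomputed for 23 results under 10 alternatives, 82 moved little and 51 moved. The members' vehicle count at gene ends was 0 in the full list, so every list cut from it had to give 0. It was also 0 with an end window of 2 kb and with any overlap of the 1 kb window. Such zeros are among the 82 values. No paired analysis was possible because the replicate columns carry no sample numbers and no result comes from a test. Percentiles in this section are medians over all gene-end or all locus peaks of members, while the 74.2 above takes the strongest peak per gene. In the full lists they were 65.7 (gene end) and 62.4 (locus) at T3 24 h. At T3 6 h they were 39.7 and 39.2, and in vehicle 50.1 (locus). With an IDR of at most 0.01 the locus peaks were 1 at T3 6 h and 0 in vehicle, and gene-end members at T3 6 h were 1 and other SWI/SNF genes 0. Median percentiles at T3 24 h were then 51.5 (gene end) and 54.5 (locus). The T3 6 h summit distance was 814 bp, and sharing was 2.6% of T3 24 h and 100% of T3 6 h peaks. With summits within 100 bp the locus peaks were 7 and 0, gene-end members and other genes at T3 6 h 0 and 0, the T3 24 h gene-end percentile 60.2, summit distances 33 bp at T3 24 h and 72 bp at T3 6 h, and sharing of T3 24 h peaks 6.94%. With lists of equal length, gene-end members were 3 at T3 24 h and 1 at T3 6 h, other SWI/SNF genes 1 and 0, locus peaks 19 and 8, gene-end percentiles 38.9 and 62.8, locus percentiles 54.4 at T3 24 h and 5.9 at T3 6 h, and 31.6% of T3 24 h peaks were shared with T3 6 h. Ranked by 1 replicate column at equal length, gene-end members were 2 to 3 at T3 24 h and 1 to 3 at T3 6 h, other SWI/SNF genes 0 to 1 and 0, and locus peaks 15 to 18 and 7 to 10. The gene-end percentiles were 26 to 62.6 and 2.96 to 13.9, the T3 24 h locus percentile 48.9 to 49.8 and the vehicle one 34.9 to 55.2, while sharing was 13.3% to 33.3% of T3 24 h and 28.6% to 60% of T3 6 h peaks. A flank of 50 kb gave 65 and 10 locus peaks, and an end window of 500 bp left 0 other SWI/SNF genes at T3 6 h. Stricter lists hold fewer peaks by construction, and percentiles were ranked anew within each cut list. With an IDR of at most 0.01 all 12 gene-end peaks of members at T3 24 h were kept with their signals unchanged. The change from 65.7 to 51.5 thus reflects other peaks leaving the list. Beyond that the cause was not tested. Depth is unknown, so no peak missing from a list is shown to be closed chromatin.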
